A study of Mus musculus with 6 samples.

Results

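The enzymes of the pentose phosphate pathway were followed in tumor cells with reduced HIF-1α. The 7 genes were taken from the deposited table by their names, *G6pdx*, *Pgls*, *Pgd*, *Rpia*, *Rpe*, *Tkt* and *Taldo1*, and all 7 of 7 were found among 22880 genes. MC-38 is a mouse colon adenocarcinoma line, and the cells used here also expressed green fluorescent protein (GFP). Both groups had been transduced with pLKO.1-puro, a lentiviral vector, had not been passaged in vivo and had formed tumors in the cecum wall of C57BL/6 J mice. The 3 HIF-1α-KD libraries came from cells with a knock-down of HIF-1α, and the 3 Mock libraries from the control cells. Living cells positive for GFP and negative for CD45 and CD31, which mark leukocytes and endothelium, had been sorted for RNA sequencing. Mouse age, the number of tumors behind a library and whether each line descends from a single clone are not given in the sources used here, so p-values measure the spread between these libraries, which may be partly technical.

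The pentose phosphate pathway branches from glycolysis at glucose 6-phosphate. Its oxidative branch, formed by *G6pdx*, *Pgls* and *Pgd*, reduces NADP to NADPH and releases ribulose 5-phosphate, and its non-oxidative branch, formed by *Rpia*, *Rpe*, *Tkt* and *Taldo1*, exchanges sugar phosphates with glycolysis and yields ribose 5-phosphate for nucleotides. In tumor cells the pathway is known as a source of NADPH for lipid synthesis and for the reduction of glutathione, and of ribose for nucleic acids. HIF-1 is the transcription factor that raises most glycolytic genes when oxygen is low, and it binds DNA at the core letters ACGTG or GCGTG.

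Between 19845852 and 30809139 reads per library were assigned to genes. *Hif1a* itself, in normalized counts (reads divided by a single factor for the library), stood at 6914, 5424 and 4945 across Mock and at 697.3, 3142 and 1928 across HIF-1α-KD libraries. The groups did not overlap, at -1.82 on the log2 scale (adjusted p = 0.219 by limma). The first principal component had its extremes in Mock replicate 1 (-39.1) and HIF-1α-KD replicate 1 (56.2). Markers of other cells were checked in FPKM, the reads of a gene scaled by its length and by the reads of the library. The summed FPKM of 12 leukocyte markers was between 128 and 138 in Mock libraries, at 83.1 and 100.3 in HIF-1α-KD replicates 1 and 2, and at 423 in HIF-1α-KD replicate 3. No leukocyte marker was at 0 in every library. The 8 fibroblast and pericyte markers, none of them at 0 in every library, summed to between 1943 and 3666 FPKM in Mock and to between 4599 and 5232 in HIF-1α-KD libraries, most of it *Col3a1*. Without *Col3a1* the other 7 summed to between 543 and 969 FPKM in Mock and to between 415.5 and 707 in HIF-1α-KD libraries, with overlap, and most of this sum was *Dcn*. Of the 8, *Col3a1*, *Rgs5* and *Cspg4* were higher without overlap, as were 10.4% of all tested genes, and *Dcn* and *Lum* had log2 fold changes below 0 (-0.38 and -0.16). The other 6 were above 0. At an unadjusted limma p under 0.05, 4 (*Col3a1*, *Cspg4*, *Rgs5* and *Pdgfrb*) were higher, as were 7.04% of all tested genes. The median of the 8 was 0.82 above that of all tested genes. Epithelial markers were nearly absent although the line is a colon carcinoma: the 8 markers summed to between 1.38 and 14.6 FPKM in Mock, with the highest value in replicate 3, and to between 1.65 and 3.13 in HIF-1α-KD libraries, and the epithelial adhesion gene *Epcam* was at most at 0.719 FPKM. Of the 8 endothelial markers, 6 stayed under 1 FPKM in every library, and the list summed to between 5.36 and 6.70 FPKM in Mock and to between 3.97 and 5.55 in HIF-1α-KD libraries. The part of these markers in the values of the pathway was not tested, and in sorted bulk samples a change in the mix of cells and a change of RNA per cell cannot be told apart.

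The genes lie on 7 different chromosomes of GRCm38. *G6pdx* (ENSMUSG00000031400) is at X, 74409483 to 74429194, *Pgls* (ENSMUSG00000031807) at 8, 71592176 to 71601092, and *Pgd* (ENSMUSG00000028961) at 4, 149149991 to 149166771. *Rpia* (ENSMUSG00000053604) is at 6, 70765720 to 70792232, *Rpe* (ENSMUSG00000026005) at 1, 66700831 to 66719805, *Tkt* (ENSMUSG00000021957) at 14, 30548359 to 30574720, and *Taldo1* (ENSMUSG00000025503) at 7, 141392199 to 141402968. *G6pdx* overlaps *Ikbkg* and *Rpe* overlaps *Kansl1l*, each on the opposite strand. *Pgls* overlaps *Fam129c* on the same strand, which had a mean of 17.3 normalized counts. The methods name a stranded library kit, but whether reads were also counted by strand is not given in the sources used here. A share of the reads of *G6pdx* and *Rpe* could therefore belong to their neighbours, which had a mean of 1001 (*Ikbkg*) and 368 (*Kansl1l*) normalized counts. *G6pd2*, the near-identical autosomal copy of *G6pdx*, had 0 reads in all 6 libraries.

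The promoters were read for the HIF core, because the comparison between the groups is one of HIF-1α. RefSeq windows of GRCm38.p6, from 250 bases before to 50 bases after a transcript start, were searched on both strands for ACGTG or GCGTG. A match was held by 6 of the 8 windows of the 7 genes, by 24 of the 31 windows of a glycolysis list and by 43.8% of all 32851 windows. Counted by gene, 6 of the 7 had a match, as did 16 of 19 glycolysis genes with a window. ACGTG also lies inside the E-box CACGTG, which no member's window held and 7.15% of all windows did. The first match before the start is shown for each gene with 12 bases on either side, and capitals mark the core, which reads CACGC where it lies on the other strand.
G6pdx: tcagtcaaagcaCACGCcctcttgcgtta
Pgls: cgggccagcaagGCGTGtctcgcccaggg
Pgd: agagacccaataGCGTGgggcatcggccc
Rpia: atttcccagcaaCACGCatttagtaatac
Tkt: actaaatgcgggGCGTGgccagaggccac
Taldo1: ccgtgacacgggGCGTGgtctatggcaag

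The match began 43 bases before the start in *G6pdx* (chrX:74428907-74428935, minus strand), 205 in *Pgls* (chr8:71591967-71591995, plus strand) and 40 in *Pgd* (chr4:149166729-149166757, minus strand). It began 74 bases before the start in *Rpia* (chr6:70792233-70792261, minus strand), 68 in *Tkt* (chr14:30549051-30549079, plus strand) and 80 in *Taldo1* (chr7:141392068-141392096, plus strand). By GENCODE M21 the stretches of *Pgd*, *Tkt* and *G6pdx* overlap an exon of the gene, where annotated transcripts start farther upstream, and those of *Rpia*, *Taldo1* and *Pgls* lie outside the gene. *Pgd* has a second RefSeq start, whose window held none of these letters. The window of *Rpe* held none either, nor did that of *Gpi1*, the glycolytic enzyme at the branch point. The core of the antioxidant response element, TGACNNNGC, was found for *G6pdx* (first base 57 before the start) and at the second start of *Pgd*, and in 12.4% of all windows. A match is a run of letters, and binding was not measured.

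The comparison asks which of the enzymes differ when HIF-1α is knocked down. None did at an adjusted p-value under 0.05 (0 of 7, limma, adjusted over 12014 genes), where 0.383% of all tested genes were called lower, 0.00832% higher and 0.391% in either direction. *Pgd*, which encodes 6-phosphogluconate dehydrogenase, was the 1 gene of the 7 with an unadjusted p-value under 0.05, and it was lower in HIF-1α-KD cells, as were 5.69% of all tested genes at that limit, with 7.04% higher and 12.7% in either direction. The edgeR and DESeq2 tests on recovered reads also called 0 of 7 after adjustment, and each had 1 gene under 0.05 before it. Leaving out a library changed which genes were under 0.05 before adjustment: they were *Pgls* and *Tkt* but not *Pgd* without Mock replicate 1, *Pgd* without Mock replicate 3, and 0 genes without any of the other libraries. No member reached a fold change of 1.5 with an unadjusted p-value under 0.05 (0 of 7), against 3.46% of tested genes lower, 4.02% higher and 7.48% in either direction. The log2 fold change, HIF-1α-KD minus Mock on the log2 scale of the normalized count plus 1, was below 0 for all 7 genes (6 with scaling by library total), between -0.41 and -0.04, and was below 0 for 47.3% of all tested genes. The median of the 7 was 0.24 below that of all tested genes, and 6 of the 7 values were below 0 without any 1 library other than Mock replicate 2, and 7 of 7 without that one. HIF-1α-KD replicate 3, with the highest leukocyte marker sum, is among the former.

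**Figure D1:**
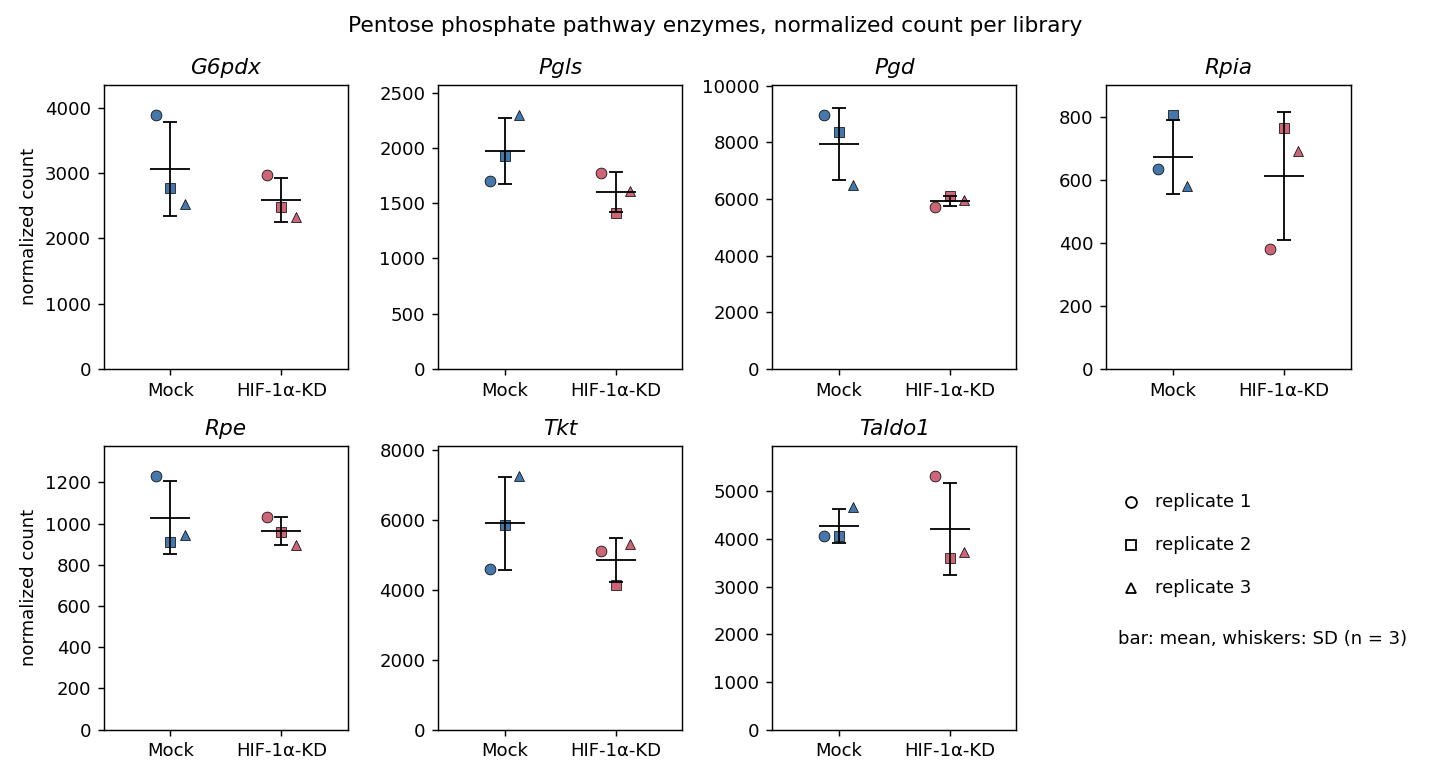
Normalized count of each enzyme (vertical axes, from 0) in the 3 Mock (blue) and 3 HIF-1α-KD (red) libraries; symbols give the replicate, bars the mean and whiskers the SD (n = 3). The groups overlap in 6 of the 7 genes, and the 3 HIF-1α-KD values of *Pgd*, between 5725 and 6086, all lie below its lowest Mock value of 6502.

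In the oxidative branch, *G6pdx* encodes glucose 6-phosphate dehydrogenase, the entry enzyme, whose reaction yields NADPH. It was at 3886, 2773 and 2527 normalized counts across Mock and at 2972, 2482 and 2326 across HIF-1α-KD libraries. Mock replicate 1 stood above the other libraries, and HIF-1α-KD replicate 1 lay higher than the remaining Mock libraries. The means were 3062 ± 724 (SD, n = 3) and 2593 ± 337 (SD, n = 3), a log2 fold change of -0.22 (standard error, SE, 0.19, adjusted p = 0.663 by limma). The 95% interval ran from -0.65 to 0.21, and the value was -0.04 without Mock replicate 1 and -0.35 without Mock replicate 3.

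*Pgls* encodes the lactonase that opens the ring of the next intermediate, 6-phosphogluconolactone. Mock libraries had 1704, 1926 and 2294 normalized counts and HIF-1α-KD libraries 1774, 1411 and 1609. The groups overlapped because Mock replicate 1 lay below HIF-1α-KD replicate 1. The means were 1975 ± 298 (SD, n = 3) and 1598 ± 182 (SD, n = 3), a log2 fold change of -0.30 (SE 0.16, adjusted p = 0.488 by limma) with a 95% interval from -0.67 to 0.07. It was -0.40 without Mock replicate 1 and -0.19 without Mock replicate 3.

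*Pgd*, the decarboxylating enzyme that yields NADPH again and releases ribulose 5-phosphate, was at 8947, 8344 and 6502 normalized counts in Mock. In the HIF-1α-KD libraries it was at 5725, 6086 and 5944, a narrow range that lay below all Mock libraries, with Mock replicate 3 the nearest. It was the 1 gene of the 7 whose groups did not overlap, against 8.75% of all tested genes lower, 10.4% higher and 19.2% in either direction without overlap. The mean was 7931 ± 1274 (SD, n = 3) in Mock and, in HIF-1α-KD cells, 5918 ± 182 (SD, n = 3), or 74.6% of the Mock mean. The log2 fold change was -0.41 (SE 0.15, 95% interval -0.76 to -0.06), with an unadjusted limma p of 0.0260 and an adjusted p of 0.339. The value stayed between -0.55 and -0.32 whichever library was left out. The unadjusted limma p was 0.00516 without Mock replicate 3, between 0.0591 and 0.0746 without any of the other libraries, and 0.0517 with scaling by library total. In FPKM, which divides by the reads of the library instead, Mock replicate 3 (159.1) and HIF-1α-KD replicate 2 (159.9) overlapped.

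In the non-oxidative branch, *Rpia* encodes ribose 5-phosphate isomerase, which makes ribose 5-phosphate from ribulose 5-phosphate. Mock libraries had 632.8, 803.9 and 581 normalized counts and HIF-1α-KD libraries 380.4, 762.6 and 691.9. HIF-1α-KD replicate 1, the library with the lowest *Hif1a*, was the lowest of all, and the other HIF-1α-KD libraries lay within the Mock range. The log2 fold change of -0.19 (SE 0.27, adjusted p = 0.816 by limma) changed sign to 0.12 without that library and was -0.38 without HIF-1α-KD replicate 2, and its 95% interval, from -0.81 to 0.44, was the widest of the 7.

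*Rpe* encodes the epimerase that turns ribulose 5-phosphate into xylulose 5-phosphate. It had 1231, 911 and 945.8 normalized counts across Mock and 1032, 959.3 and 897.5 across HIF-1α-KD libraries, so that all but Mock replicate 1 lay close together. Its log2 fold change was -0.09 (SE 0.17, adjusted p = 0.860 by limma), with a 95% interval from -0.47 to 0.30, and it was 0.05 without Mock replicate 1 and -0.17 without Mock replicate 2.

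*Tkt* encodes transketolase, which transfers ketol groups between sugar phosphates. It was at 4599, 5852 and 7261 normalized counts across Mock and at 5117, 4140 and 5325 across HIF-1α-KD libraries. The Mock libraries spread over the whole range of the HIF-1α-KD libraries apart from the lowest of these. The log2 fold change was -0.26 (SE 0.19, adjusted p = 0.602 by limma), with a 95% interval from -0.70 to 0.17. It was -0.43 without Mock replicate 1, -0.10 without Mock replicate 3 and -0.15 without HIF-1α-KD replicate 2.

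*Taldo1* encodes transaldolase, which transfers a dihydroxyacetone group and returns fructose 6-phosphate to glycolysis. It was at 4069, 4057 and 4677 normalized counts across Mock and at 5316, 3592 and 3726 across HIF-1α-KD libraries. HIF-1α-KD replicate 1 was the highest and the other HIF-1α-KD libraries were the lowest of the 6. The means of 4268 ± 355 (SD, n = 3) and 4211 ± 959 (SD, n = 3) gave a log2 fold change of -0.04 (SE 0.18, adjusted p = 0.946 by limma), with a 95% interval from -0.44 to 0.36. Scaling by library total turned it to 0.02, and it lay between -0.22 without HIF-1α-KD replicate 1 and 0.06 without HIF-1α-KD replicate 2, so no direction is given for *Taldo1*.

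**Figure D2:**
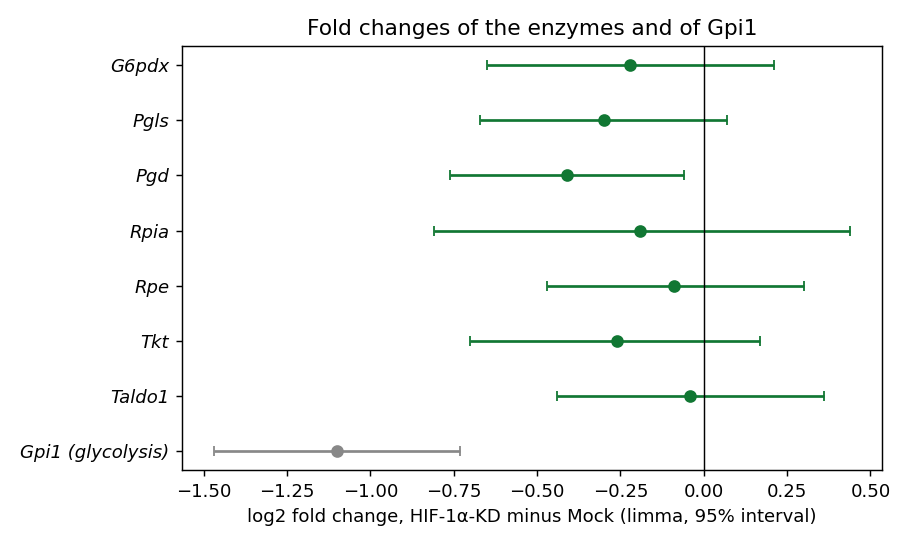
Log2 fold change, HIF-1α-KD minus Mock (horizontal axis), of the 7 enzymes (green) and of *Gpi1* (grey), with 95% intervals from limma. The intervals of all enzymes but *Pgd* (-0.76 to -0.06) include 0, and that of *Gpi1* runs from -1.47 to -0.73.

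Levels per length spanned a wide range among the enzymes. In Mock cells the level in FPKM was highest for *Pgd* (198 ± 33.8, SD, n = 3), *Taldo1* (180 ± 13.1, SD, n = 3) and *Tkt* (150 ± 33.7, SD, n = 3), whose libraries overlapped with the next gene in this order. *G6pdx* followed with 96.8 ± 21.3 FPKM (SD, n = 3), overlapping with *Tkt* but not with *Pgls* at 58.8 ± 8.77 FPKM (SD, n = 3). *Rpe* at 21.2 ± 3.15 FPKM and *Rpia* at 13.03 ± 2.76 FPKM (SD, n = 3 each), which share ribulose 5-phosphate as substrate, were the lowest and did not overlap. In HIF-1α-KD cells *Taldo1* (184 ± 37.1 FPKM, SD, n = 3) came before *Pgd* (154 ± 8.17 FPKM, SD, n = 3), with overlapping libraries, and the order was otherwise that of Mock cells. The 7 genes together summed to between 706.6 and 738.6 FPKM in Mock and to between 593.9 and 680.5 FPKM in HIF-1α-KD libraries, without overlap. As a share, they held between 0.0954% and 0.104% of the summed FPKM of a Mock library and between 0.0863% and 0.0975% of that of a HIF-1α-KD library, with overlap.

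The enzymes did not vary as a block from library to library. *G6pdx*, *Rpe* and *Pgd* were highest in Mock replicate 1, at 0.48, 0.31 and 0.39 above their mean over the 6 libraries on the log2 scale. *Tkt* and *Pgls* were highest in Mock replicate 3, at 0.46 and 0.38 above it. *Rpia* and *Taldo1* deviated most in HIF-1α-KD replicate 1, in opposite directions, at -0.71 and 0.34. Over the 6 libraries, which share the group difference, the most extreme values of Pearson's r among the 21 pairs of enzymes were 0.936 for *G6pdx* and *Rpe*, 0.934 for *Pgls* and *Tkt* and -0.892 for *Rpia* and *Taldo1*. The value nearest to 0 was 0.000359 for *Pgd* and *Tkt*, and others lay between, such as 0.691 for *G6pdx* and *Pgd*.

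**Figure D3:**
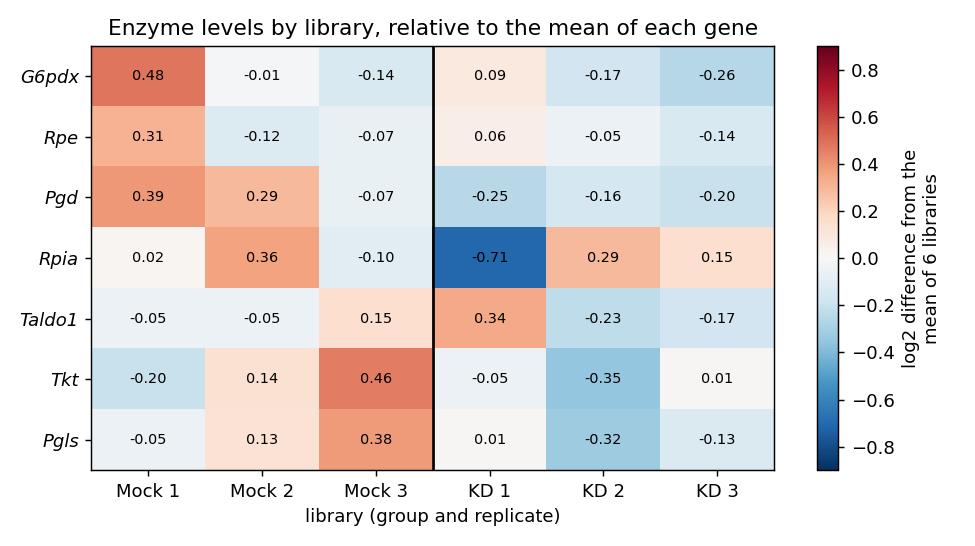
Log2 normalized count of each enzyme in each library minus the mean of that gene over the 6 libraries (colour and printed value); rows are genes, columns are libraries, and KD stands for HIF-1α-KD. The highest values of *G6pdx*, *Rpe* and *Pgd* are in Mock 1 and those of *Tkt* and *Pgls* in Mock 3.

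Ratios within a library do not depend on how libraries are scaled, and 3 were tested with an exact permutation test, two-sided, which cannot give a p below 0.1 with 3 libraries against 3. At glucose 6-phosphate, the RNA of *G6pdx* was set over that of *Gpi1*, which encodes the isomerase that takes the same substrate into glycolysis. The use of the substrate was not measured. On the log2 scale of FPKM this ratio was -2.72, -2.91 and -3.15 across Mock and -1.96, -1.85 and -2.34 across HIF-1α-KD libraries. All HIF-1α-KD libraries lay above all Mock libraries, and the difference was 0.88 (exact permutation p = 0.1, adjusted over the 3 ratios p = 0.3). The denominator *Gpi1* had 31490, 25700 and 27530 normalized counts across Mock and 14190, 11020 and 14530 across HIF-1α-KD libraries. For *Gpi1* the log2 fold change was -1.10 (SE 0.16, adjusted p = 0.0327 by limma), with an adjusted p between 0.0555 and 0.139 when any library was left out.

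Within the oxidative branch, the log2 ratio of *Pgd* to *G6pdx* averaged 1.04 ± 0.19 across Mock and 0.85 ± 0.22 across HIF-1α-KD libraries (SD, n = 3 each), with overlap (two-sided exact permutation p = 0.4, adjusted p = 0.4). Between the carbon-transfer enzymes, the log2 ratio of *Taldo1* to *Tkt* averaged 0.29 ± 0.24 across Mock and 0.51 ± 0.29 across HIF-1α-KD libraries (SD, n = 3 each), again with overlap (exact permutation p = 0.4, adjusted p = 0.4). The oxidative enzymes summed to 387.8, 368.7 and 304.6 FPKM in Mock and to 293, 286.9 and 285 FPKM in HIF-1α-KD libraries, without overlap. As a share of the summed FPKM of all genes they overlapped, at 0.0524%, 0.0521% and 0.0413% across Mock and 0.0420%, 0.0417% and 0.0413% across HIF-1α-KD libraries. The non-oxidative enzymes summed to 318.8, 369.8 and 405.1 FPKM in Mock and to 387.5, 307 and 342.9 FPKM in HIF-1α-KD libraries, with overlap. The oxidative share of the summed FPKM of the 7 genes averaged 49.2% ± 6.01 across Mock and 45.6% ± 2.63 across HIF-1α-KD libraries (SD, n = 3 each), a difference within the spread of the Mock libraries.

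**Figure D4:**
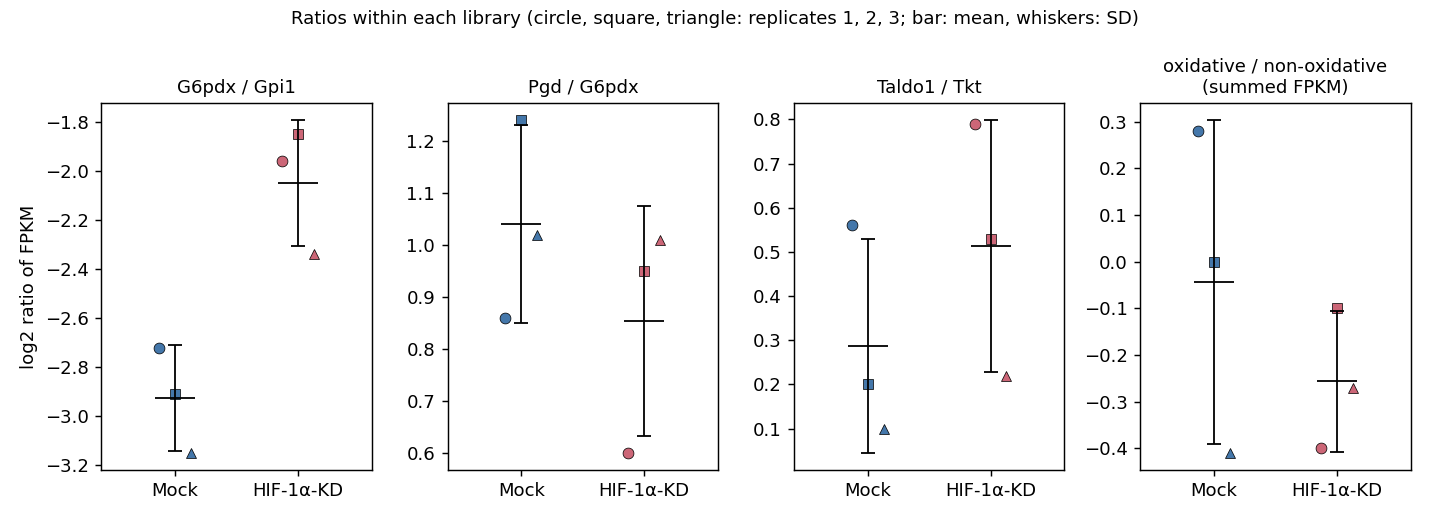
Log2 ratios of FPKM within each library (vertical axes) for 3 pairs of genes and for the summed oxidative over the summed non-oxidative enzymes, in Mock (blue) and HIF-1α-KD (red) libraries; bars give the mean and whiskers the SD (n = 3). The groups are apart only for *G6pdx* over *Gpi1*, with Mock between -3.15 and -2.72 and HIF-1α-KD between -2.34 and -1.85.

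Genes around the pathway were described by a list of side enzymes and users of ribose 5-phosphate. Of its 14 genes, 11 passed the filter on low counts, and limma called 0 of 11 at an adjusted p-value under 0.05, against 0.391% of all tested genes. At an unadjusted p-value under 0.05 there was 1 gene, *Prps2*, lower, where 5.69% of all tested genes were lower and 12.7% passed in either direction, and edgeR and DESeq2 gave the same counts of 0 and 1. Their median log2 fold change was 0.05 below that of all tested genes. *H6pd*, which runs both first steps of the oxidative branch in the endoplasmic reticulum, had a log2 fold change of 0.17 (SE 0.17, adjusted p = 0.709 by limma). The largest values were those of *Shpk*, the kinase that makes sedoheptulose 7-phosphate, with a log2 fold change of -0.84 (adjusted p = 0.484 by limma), and of *Rbks*, ribokinase, with -0.40 (adjusted p = 0.762 by limma). Both had few reads, at most 65 in a library for *Shpk* and 46 for *Rbks*. *Prps2*, picked out after its values were seen, makes phosphoribosyl pyrophosphate from ribose 5-phosphate and had a log2 fold change of -0.39 (adjusted p = 0.339 by limma), against -0.01 for its paralog *Prps1* (adjusted p = 0.982 by limma). The transketolase-like genes *Tktl1* and *Tktl2* had at most 1 read and 0 reads in a library, and *G6pd2* had 0.

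The list's *Pgm2*, the ortholog of human PGM2, carries the older name *Pgm1* in the deposited table and had a log2 fold change of -0.22 (adjusted p = 0.615 by limma). The gene that the table calls Pgm2 (ENSMUSG00000025791) is the ortholog of human PGM1, which links glucose 6-phosphate to glycogen. Its mean was 6809 ± 918 normalized counts in Mock and 2754 ± 385 in HIF-1α-KD cells (SD, n = 3 each), and its log2 fold change was -1.31 (SE 0.16, adjusted p = 0.0242 by limma, between 0.0422 and 0.0898 when a library was left out). Matching the list by the names in the table would have counted it as 1 call.

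A list of other enzymes of NADPH supply, which also holds the kinases that make NADP and further genes of folate metabolism, gave 0 calls among 13 tested genes (limma, adjusted p-value under 0.05), against 0.391% of all tested genes. Before adjustment 2 were lower and 1 higher, where 5.69% of all tested genes were lower and 7.04% higher. By edgeR and by DESeq2 3 were lower and 0 higher before adjustment, against 6.33% and 6.18% of all tested genes that were lower. After adjustment edgeR called 0 and DESeq2 called 1, *Me2*, where DESeq2 called 2.36% of all tested genes. *Me2*, a mitochondrial malic enzyme that works mainly with NAD and is thus not chiefly a source of NADPH, had a log2 fold change of -0.71 (adjusted p = 0.154 by limma). *Mthfd1l* and *Mthfd1*, of folate metabolism in mitochondria and cytosol, had -0.48 (adjusted p = 0.275 by limma) and 0.45 (adjusted p = 0.382 by limma). The median of the list was 0.17 below that of all tested genes. Genes of the glutathione and thioredoxin systems, which draw on NADPH through their reductases, gave 0 calls among 13 and 0 at an unadjusted p-value under 0.05 by limma, against 0.391% and 12.7% of all tested genes. By edgeR they gave 0 and 0, against 0.391% and 12.4%, and by DESeq2 0 and 1, against 2.36% and 13%. The median of this list was 0.15 below that of all tested genes. *Gclm*, the modifier subunit of the enzyme that starts glutathione synthesis, had a log2 fold change of -0.49 (adjusted p = 0.488 by limma) and *Glrx*, glutaredoxin, had -0.43 (adjusted p = 0.529 by limma).

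Glycolysis shares intermediates with the pathway and was the closest comparison. Of its 20 genes, 10 were lower at a limma adjusted p-value under 0.05 and 0 were higher, against the 0.383% of all tested genes. The edgeR test called 11 and DESeq2 15, where they called 0.391% and 2.36% of all tested genes in either direction. At an unadjusted limma p under 0.05, 16 were lower, against 5.69% of all tested genes, and 15 or 16 whichever library was left out. With 1 library fewer, the adjusted calls were 0 without Mock replicate 1 or 3 or HIF-1α-KD replicate 2 or 3, 2 without Mock replicate 2 and 5 without HIF-1α-KD replicate 1. The median log2 fold change of the 20 genes was 1.05 below that of all tested genes, where the 7 pentose phosphate genes were 0.24 below. With a library left out, the difference for glycolysis was between -1.10 and -1.0. The largest values at an unadjusted p-value under 0.05 were those of *Slc2a1* (-1.83, glucose transporter), *Aldoc* (-1.80, aldolase C), *Pgk1* (-1.55, phosphoglycerate kinase) and *Pfkl* (-1.25, phosphofructokinase), all on the log2 scale, with limma adjusted p-values of 0.0254, 0.245, 0.0245 and 0.0298. The share of the summed FPKM held by the 20 genes averaged 2.29% ± 0.0509 across Mock and 1.19% ± 0.0898 across HIF-1α-KD libraries (SD, n = 3 each). Of 9 genes used to check the knock-down, *Hif1a* included, 4 were lower at a limma adjusted p-value under 0.05 and 9 at an unadjusted one, against 0.383% and 5.69% of all tested genes. Their log2 fold changes were between -2.93 and -0.41. The largest were those of *Car9* (-2.93, carbonic anhydrase 9), *Bnip3* (-2.70, a mitophagy receptor), *Ankrd37* (-2.60) and *Egln3* (-1.99, an oxygen sensor), with limma adjusted p-values of 0.0553, 0.0205, 0.0245 and 0.210. With a library left out, *Bnip3* was called in 4 of 6 fits (adjusted p up to 0.0898) and *Ankrd37* in 1 of 6 (up to 0.109), and of the glycolytic genes *Slc2a1* and *Pgk1* were called in 2 of 6 each and *Pfkl* in 0 of 6. The smallest changes of the check genes, picked out after their values were seen, were those of *P4ha1* (-0.45) and *Vegfa* (-0.41).

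**Figure D5:**
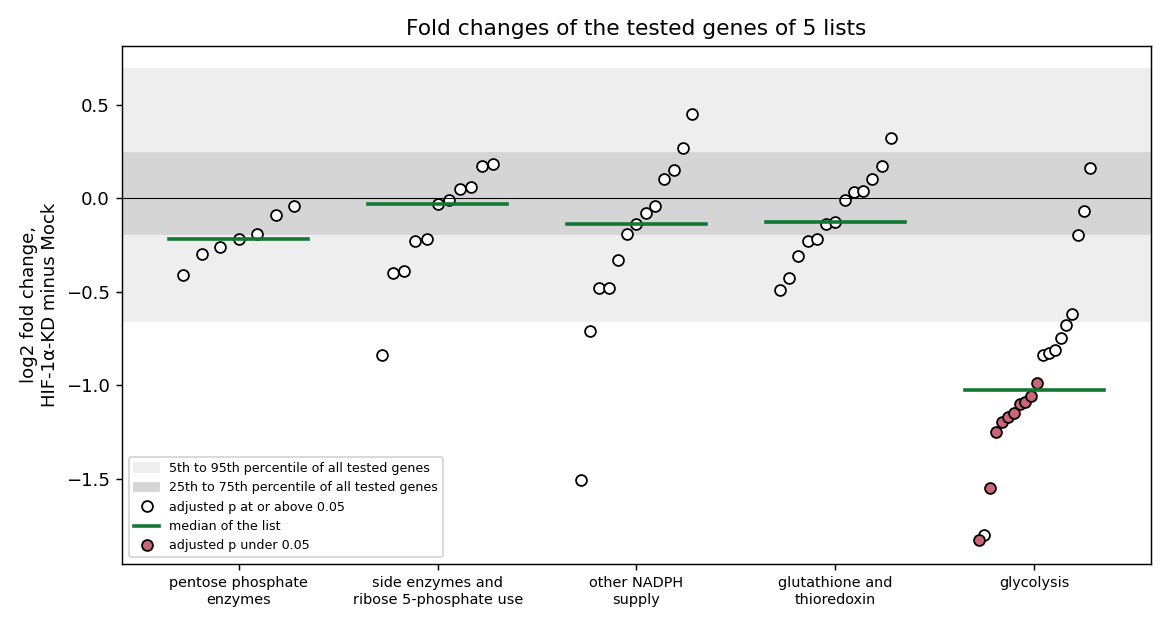
Log2 fold change, HIF-1α-KD minus Mock (vertical axis), of each tested gene of 5 lists; filled points have a limma adjusted p-value under 0.05, green bars are medians, and grey bands run from the 25th to the 75th and from the 5th to the 95th percentile of all 12014 tested genes. The 7 pentose phosphate enzymes lie between -0.41 and -0.04, and the 10 filled points are all in the glycolysis list, whose median is -1.03.

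The genes most like *Pgd* over the 6 libraries, among 12013 compared, were *Gpsm2* (Pearson's r = 0.991), *Auh* (r = 0.987) and *Pik3cb* (r = 0.986). For *Pgls*, the member with the next largest fold change, they were *Ring1* (r = 0.983), *Mvb12a* (r = 0.981) and *Rpl13* (r = 0.977). With 6 points, 47 genes had an r above 0.95 with *Pgd* and 21 with *Pgls*.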

How the data were processed

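RNA of 6 libraries was measured and grouped by the knock-down in the labels. Per the methods the authors aligned trimmed reads with STAR and counted them with featureCounts. The labels name GRCm38, whereas the methods name GRCh38, and the identifiers are mouse Ensembl. The deposited normalized counts are a signal, reads divided by one factor per library and printed to 4 significant digits. The deposited FPKM divide by gene width and library reads. The authors' log2 ratio, p-value and false discovery rate columns hold their own comparison, for which the methods name DESeq2 and the labels edgeR, and were not used. The deposited GC content is a fraction.

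Reads were recovered from the steps of the normalized counts (100% of values up to 300 reads were whole within 0.1). As the values are normalized counts, limma 3.58.1 with a trend was fitted to log2 of the normalized count plus 1 for the 12014 genes kept by filterByExpr (minimum count of 10), all 7 members included. Two-sided p-values received a Benjamini-Hochberg adjustment over all genes. edgeR 4.0.16 and DESeq2 1.42.0 on recovered reads, other scalings, pseudocounts (0.1 and 10), no filter, a replicate block and leaving out each library were alternatives. The fits were tested on simulated data.

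The members and lists were chosen with earlier results of these data known, and the lists were written from general knowledge. Listed symbols were matched by Ensembl identifier through GENCODE M21, which was chosen after seeing that the table uses older names for *Tigar* and *Pgm2*. All members were named, and of each other list up to 4 genes under an unadjusted p of 0.05, taken by size of fold change, or the 2 largest where fewer than 2 passed, with *Gpi1*, *G6pd2* and *Hif1a* always. No 2 libraries of 1 group agreed within read sampling (chi-square per degree of freedom between 30.4 and 97.6). Software was R 4.3.3, matplotlib 3.10.9, scipy 1.17.1, numpy 2.4.6, pandas 2.3.3 and Python 3.11.15.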

Additional observations from a re-analysis of the deposited data

How the results depend on the processing

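The count of enzymes at an adjusted p-value under 0.05 was 0 under all 15 alternatives to the limma fit, that is the tests, scalings, pseudocounts, filter, replicate block and each library left out. *G6pdx*, *Pgls*, *Pgd* and *Tkt* kept their direction in all of them. *Rpia* had a log2 fold change between -0.38 and 0.12 with each library left out (0.12 without HIF-1α-KD replicate 1), *Rpe* between -0.17 and 0.05 (0.05 without Mock replicate 1) and *Taldo1* between -0.22 and 0.06 (0.03 without Mock replicate 3, and 0.06 and 0.04 without HIF-1α-KD replicates 2 and 3), and *Taldo1* was at 0.02 with scaling by library total. With the list of side enzymes matched by the names in the table, an alternative added after seeing the data, its count of lower calls was 1 in place of 0. The cause was not tested for the changes of sign. The median of the 7 genes against all tested genes lay between -0.34, without HIF-1α-KD replicate 1, and -0.20, and that of glycolysis between -1.10 and -1.0. Across all genes, 46 lower and 1 higher calls became 187 and 96 with DESeq2, 1 and 0 for limma without trend (0 glycolysis genes), between 0 and 32 lower with a library left out, and 0 without Mock replicate 3 or HIF-1α-KD replicate 2, where 672 and 509 genes were lower at an unadjusted p-value under 0.05.

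The replicate numbers do not pair the libraries, as libraries of the same number deviated from their group means with correlations of -0.139, -0.123 and 0.0228. With the replicate block, *Pgd* had a log2 fold change of -0.41 (limma adjusted p = 0.431), 0 enzymes and 0 glycolysis genes were called, and 0 genes were called in all by limma (607 lower and 717 higher at an unadjusted p-value under 0.05).

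With 3 libraries a group, the 95% intervals of the enzymes, which are not adjusted for the number of genes tested, reach between 0.35 and 0.62 to either side of the log2 fold change. Smaller differences could thus not be told from 0 even before adjustment. After adjustment some larger ones were not called either, such as -0.41 for *Pgd* (adjusted p = 0.339 by limma) and -0.84 for *Eno1* of the glycolysis list (adjusted p = 0.107 by limma).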
